A study of Bos taurus with 18 samples.

Results

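Solute carriers are membrane proteins that move amino acids, nucleosides, sugars, fatty acids, vitamins and ions across the plasma membrane and the membranes of organelles. The 159 genes described here are those whose platform symbol begins with SLC, with the glucose transporter family SLC2A, the monocarboxylate transporters SLC16A1 and SLC16A3, the exchanger SLC9A3 and the zinc transporter families SLC30A and SLC39A left out. They are 159 of the 186 SLC genes that the arrays measure with a probe set of 1 listed gene, and of 9155 such genes in all. Each gene was read from its brightest probe set over all arrays, and 45 of the 159 had more than 1 probe set. The carriers fall into 27 amino acid carriers (families SLC1, SLC3, SLC6, SLC7, SLC38 and SLC43), 27 mitochondrial carriers (SLC25) and 105 others, and 7 of the 159 lie on the X chromosome. These classes follow the family names and not the substrate or membrane of each member, so the creatine carrier SLC6A8 counts as an amino acid carrier. The symbols SLC7A6OS and SLC4A1AP are members by name but not carriers, and they were counted among the others.

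The study compared female with male bovine blastocysts made in vitro. RNA from pools of 60 blastocysts of 1 sex and 1 sire was hybridised to 18 Affymetrix bovine arrays, 9 for each sex. The female groups came from bull 3, bull 2 and bull 1, and the male groups from the same 3 bulls, with 3 arrays in each of the 6 groups. All embryos were of mixed breed, came from sex-sorted semen, were collected at day 7 after insemination and were frozen at once. Each bull is a single sire, and nothing in the labels tells if pools of 1 group stem from different fertilisations, so the p-values measure the spread between these pools. Values are deposited log2 expression values, on which a difference of 1 is a doubling of the signal, and a gene was called where its adjusted p was under 0.05.

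Many carriers work in sequence. Sodium-coupled amino acid carriers load the cell, exchangers trade the loaded amino acids for others, and heteromeric exchangers need a heavy chain of the SLC3 family to bring an SLC7 light chain to the membrane. In mitochondria, SLC25 carriers exchange ADP for ATP and pass malate, citrate, aspartate, glutathione and methyl donors across the inner membrane. The preimplantation embryo takes up amino acids from its medium through such carriers, among them the glycine, glutamate and leucine transport systems.

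The labelled sexes and tissue were checked on marker genes. XIST, the RNA of the inactive X chromosome, lay between 8.87 and 9.57 in female arrays and between 5.93 and 7.28 in male arrays. The trophectoderm keratin KRT18 had a median of 14.06 in female arrays and 14.08 in male arrays, and POU5F1 had 11.92 in female arrays and 11.92 in male arrays. CDX2, GATA2, GATA3, TFAP2C and NANOG were not analysed here. Of 4 arrays with a wide relative spread (the interquartile range of an array's deviations from the median array, 0.268 to 0.349, against 0.168 to 0.198 on the other 14), 1 was female (bull 1 replicate 3) and 3 were male (bull 1 replicate 2, bull 2 replicate 1 and bull 3 replicate 3). Without them 21 carriers were called higher in females and 30 higher in males, against 21 and 21 with all arrays.

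Of the 159 carriers, 42 (26.4%) differed between the sexes, 21 of them higher in females and 21 higher in males. Over all genes the fit called 20.8%, with 11.5% higher in females and 9.31% higher in males, and over all probe sets it called 15.6% (8.12% higher in females and 7.47% higher in males). The called carriers had a median absolute difference of 0.32 on the log2 scale, and the most different of them, SLC6A20, was 1.67-fold higher in males. The median difference over all 159 was -0.02, and that over all genes was -0.01. A further 27 carriers had an unadjusted p under 0.05 and were not called. Of 30 uncalled carriers with more than 1 probe set, 6 had another probe set under the threshold: SLC12A2, SLC13A4, SLC25A34, SLC35A5, SLC5A1 and SLCO2B1. Amino acid carriers were called in 11 of 27 cases (40.7%), mitochondrial carriers in 9 of 27 (33.3%) and the others in 22 of 105 (21.0%). The difference between these shares was not tested.

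Called shares were also counted by brightness. Of the 91 carriers in the brighter 50% of probe sets, 33 (36.3%) were called, 13 higher in females and 20 higher in males, where 25.4% of all genes at that brightness were called. Of the 68 dimmer carriers 9 (13.2%) were called, 8 of them higher in females and 1 higher in males, where 10.1% of all dimmer genes were called. The called shares of carriers thus lay above those of all genes at both levels, and no test of this excess was made. On the autosomes 36 of 152 carriers were called (23.7%), 15 higher in females and 21 higher in males, where 19.1% of all autosomal genes were called (9.52% higher in females and 9.61% higher in males). In 8 carriers the 9 female and 9 male arrays did not overlap: SLC25A5, SLC35A2, SLC66A3 and SLC10A3 with females above, and SLC6A20, SLC38A7, SLC25A26 and SLC29A3 with females below. Over all genes 3.11% had every female array above every male array and 1.4% had every one below.

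**Figure D1:**
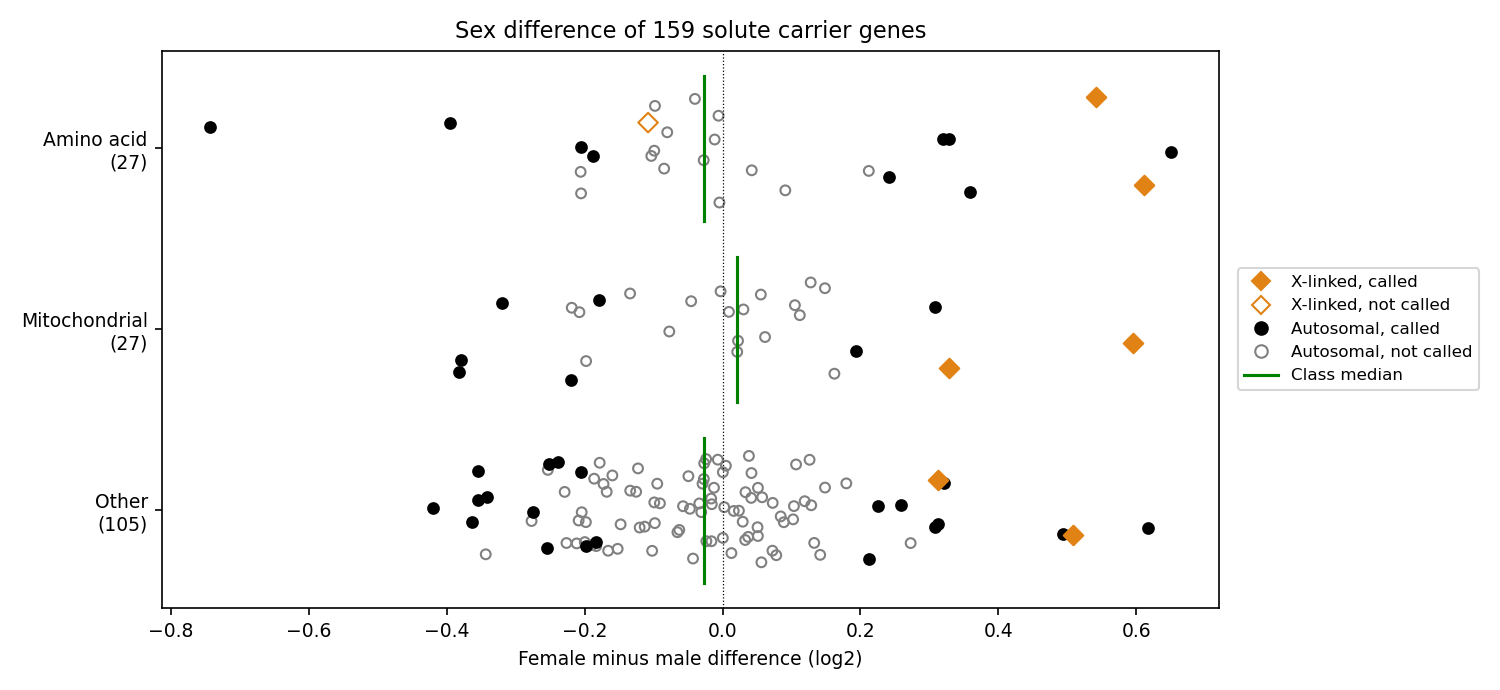
Female minus male difference (log2, horizontal) of each of the 159 carriers in 3 classes, with 1 point per gene; filled symbols are called at an adjusted p under 0.05, orange diamonds are X-linked and green lines mark the class medians. The medians (-0.03, 0.02 and -0.03) lie near 0, and the called carriers spread to both sides, with the X-linked ones on the female side apart from the uncalled SLC6A14.

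The X-linked carriers are given first. Of the 7, 6 were higher in females and none higher in males, with a median difference of 0.51. Over all 297 X-linked genes 70.4% were called, 70.0% higher in females and 0.337% higher in males, with a median difference of 0.44. The share among the carriers is near this background. SLC6A8, the carrier that brings creatine into cells, ranged from 10.21 (median 10.45) to 10.97 in female arrays, against 9.55 (median 9.89) to 10.44 in male arrays. It was 1.46-fold higher in females (difference 0.54, SE 0.09, adjusted p = 0.000406), and its other probe set gave 0.70 (adjusted p = 5.18e-06). The sexes overlapped by 1 male array, bull 1 replicate 2, which is one of the arrays of wide spread. SLC38A5, a carrier of glutamine and other neutral amino acids, had 5.08 to 6.09 (median 5.54) in female arrays, against 4.55 to 5.38 (median 4.88) in male arrays. It was 1.53-fold higher in females (adjusted p = 0.00373), a call that was lost without bull 3 (adjusted p = 0.0909).

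Among the X-linked mitochondrial carriers, SLC25A5 exchanges ADP for ATP and was one of the brightest probe sets on the arrays. It lay between 13.48 and 13.57 (median 13.52) in female arrays, against 13.02 to 13.37 (median 13.20) in male arrays. The female arrays were all above the male arrays and closely grouped, and the difference of 0.33 (SE 0.05, adjusted p = 0.000218) was 0.35 in bull 3, 0.33 in bull 2 and 0.31 in bull 1. A dimmer probe set of the gene gave 0.23 (adjusted p = 0.0176). SLC25A14, a carrier of the uncoupling protein group, had 6.91 to 7.51 (median 7.19) in female arrays, against 6.16 to 7.03 (median 6.52) in male arrays. It was 1.51-fold higher in females (adjusted p = 0.00012), and the sexes overlapped only narrowly.

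Of the remaining X-linked carriers, 2 were called. SLC35A2, which carries UDP-galactose into the Golgi, lay between 9.06 and 9.28 (median 9.21) in female arrays, against 8.80 to 8.92 (median 8.89) in male arrays. The sexes did not overlap, and the difference was 0.31 (SE 0.04, adjusted p = 7.38e-05); its other probe set gave 0.16 (adjusted p = 0.146). SLC10A3, an orphan of the bile acid carrier family, had 6.69 to 7.05 (median 6.90) in female arrays, against 6.06 to 6.61 (median 6.35) in male arrays. Again no female array fell below a male array (difference 0.51, SE 0.07, adjusted p = 7.81e-05). SLC6A14, a carrier of broad amino acid range, was the X-linked exception. It averaged 2.61 ± 0.07 in females and 2.72 ± 0.18 in males (SD, n = 9 each; adjusted p = 0.31), at a level above only 5.6% of probe sets.

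Amino acid carriers differed in both directions, 7 higher in females and 4 higher in males, and 16 were not called. Without the X-linked ones the counts were 5 and 4 of 24. The SLC6A20 transporter, a sodium-coupled carrier of proline and other imino acids, had 7.05 to 7.47 (median 7.33) in female arrays, against 7.61 to 8.40 (median 8.09) in male arrays. Every male array lay above every female array. The difference was -0.74 (SE 0.07, adjusted p = 1.09e-06), and it measured -1.01 in bull 3, -0.45 in bull 2 and -0.76 in bull 1. SLC38A7, which exports glutamine from lysosomes, ranged from 7.15 (median 7.25) to 7.36 in female arrays, against 7.48 (median 7.66) to 7.88 in male arrays. Here too the sexes did not overlap (difference -0.40, 1.32-fold higher in males, adjusted p = 4.94e-05), and it was the 1 carrier called in each bull taken alone.

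Smaller differences toward males were found in 2 plasma membrane carriers. SLC38A2, a sodium-coupled carrier of alanine, serine and other small neutral amino acids, had 10.89 to 11.19 (median 11.05) in female arrays, against 11.06 to 11.47 (median 11.28) in male arrays. The sexes overlapped, the difference was -0.19 (adjusted p = 0.0121), and its other probe set gave -0.41 (adjusted p = 0.00487). SLC43A1, a facilitated carrier of branched-chain and other large neutral amino acids, had 7.61 to 7.94 (median 7.75) in female arrays, against 7.81 to 8.30 (median 7.97) in male arrays, and differed by -0.21 (adjusted p = 0.0211). Both calls were lost without bull 2 and without bull 3, in fits with fewer arrays. The differences there were still -0.18 and -0.17 for SLC38A2 and -0.19 and -0.18 for SLC43A1. Without bull 2 the adjusted p was 0.15 for SLC38A2 and 0.209 for SLC43A1, and without bull 3 it was 0.103 and 0.158. With the bull as the replicate they were 0.0741 and 0.0593.

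Toward females, SLC7A9 had the largest difference among the carriers. It is the light chain of the cystine and dibasic amino acid exchanger, and it had 5.20 to 5.88 (median 5.61) in female arrays, against 4.25 to 5.56 (median 4.99) in male arrays. The male arrays were spread widely and their top overlapped the female arrays. SLC7A9 was 1.57-fold higher in females (difference 0.65, SE 0.12, adjusted p = 0.000784), and the adjusted p without bull 2 was 0.0674. Its heavy chain SLC3A1 was dim and was not called, at 3.78 ± 0.14 in females and 3.69 ± 0.26 in males (SD, n = 9 each; adjusted p = 0.55).

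SLC7A7, a light chain that exchanges dibasic for neutral amino acids, had 8.11 to 8.38 (median 8.20) in female arrays, against 7.56 to 8.20 (median 7.87) in male arrays. It was 1.26-fold higher in females (adjusted p = 0.00679), with an overlap in the upper male arrays. The call was lost without bull 1 (adjusted p = 0.0528) and without bull 2 (0.149). Its heavy chain SLC3A2, which also serves the leucine exchanger SLC7A5, had 9.39 to 9.82 (median 9.59) in female arrays, against 9.29 to 9.90 (median 9.64) in male arrays. The sexes covered the same range and the gene was not called (difference -0.03, adjusted p = 0.859). SLC7A5 differed by -0.10 (adjusted p = 0.4), with female bull 1 replicate 3 apart from the other female arrays at 11.54. SLC7A1, a carrier of arginine and lysine, differed by -0.08 (adjusted p = 0.542). Of the light chains and relatives measured in the SLC7 family, only SLC7A9 and SLC7A7 were thus called in this fit.

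The other carriers higher in females were SLC38A11, SLC6A11 and SLC1A3. SLC38A11, a putative sodium-coupled carrier of neutral amino acids, had 7.02 to 8.03 (median 7.48) in female arrays, against 6.79 to 7.46 (median 7.14) in male arrays. It differed by 0.36 (adjusted p = 0.00331; 0.0827 without bull 2). SLC6A11, a carrier of the neurotransmitter GABA, was dim, with 4.41 to 4.76 (median 4.53) in female arrays, against 4.04 to 4.48 (median 4.21) in male arrays. It differed by 0.32 (adjusted p = 0.0025; 0.0804 without bull 1), and its other probe set by 0.43 (adjusted p = 0.000509). SLC1A3, a glutamate carrier, was the only called carrier whose difference changed sign between bulls. It averaged 6.39 ± 0.20 in females and 6.14 ± 0.19 in males (SD, n = 9 each). The difference measured 0.25 in bull 3, 0.55 in bull 2 and -0.08 in bull 1, and 0.24 over all (adjusted p = 0.0192; 0.695 without bull 2, 0.136 without bull 3 and 0.0608 in the additive model).

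Neither SLC6A6 nor SLC6A9, carriers of amino acids used as embryo osmolytes, was called. SLC6A6, the taurine carrier, averaged 3.54 ± 0.26 in females and 3.55 ± 0.22 in males (SD, n = 9 each; adjusted p = 0.986), and female bull 1 replicate 3 lay apart from the other female arrays at 4.23. SLC6A9, a glycine carrier, averaged 3.41 ± 0.13 in females and 3.37 ± 0.12 in males (adjusted p = 0.74). Both probe sets were dim. The uncalled amino acid carriers ranged from -0.21 to 0.21.

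**Figure D2:**
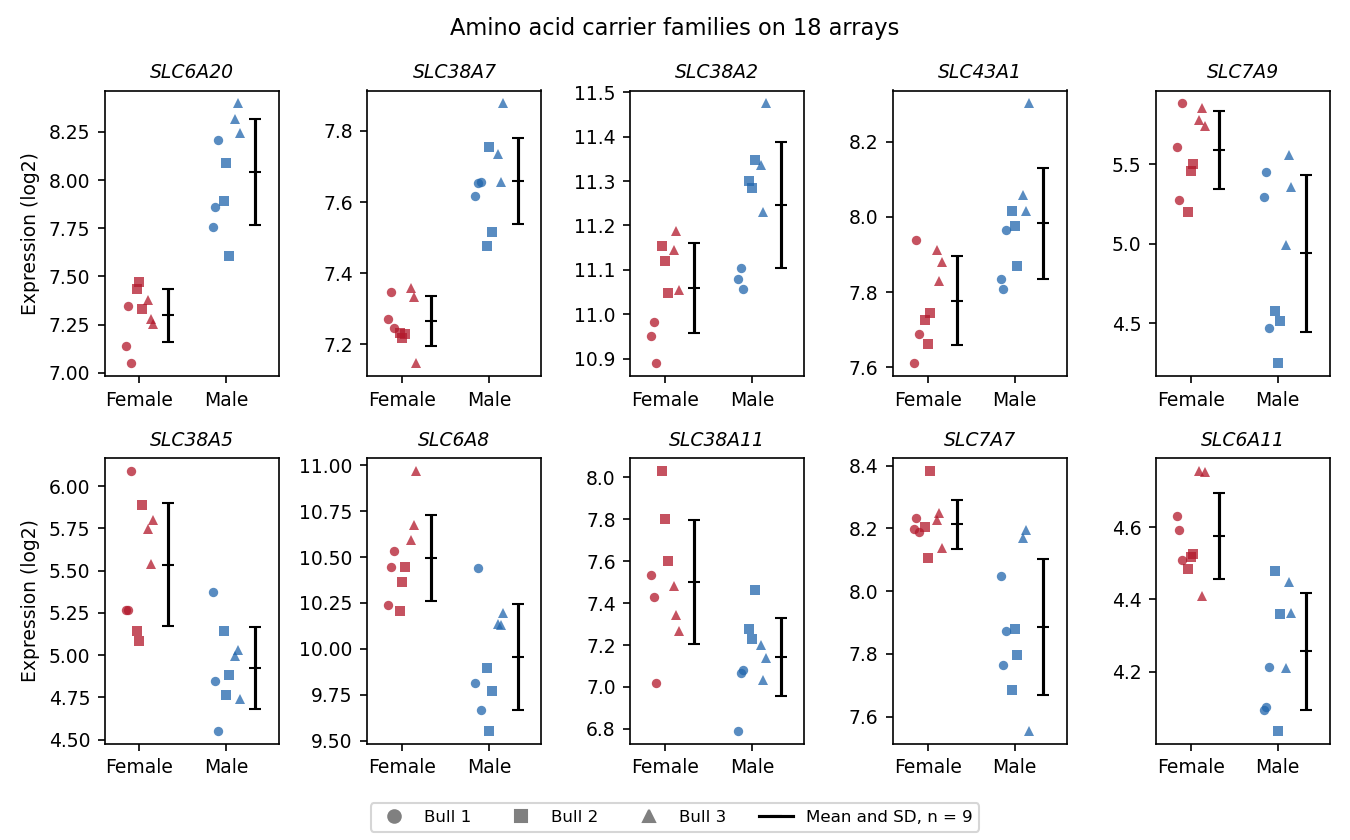
Log2 expression (vertical) of called amino acid carriers (without SLC1A3) on each array, with females left of males for every gene. There are 9 arrays for each sex, the marker gives the bull and the bar the mean with its SD. SLC6A20 and SLC38A7 separate the sexes without overlap, and the sexes of SLC38A2 overlap.

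Genes that sense or make amino acids were set beside the carriers. Of 31 listed genes 27 were measured, 1 was higher in females, 2 were higher in males, and the median difference was -0.02. RRAGB, an X-linked GTPase through which amino acids reach the growth kinase mTOR, averaged 5.71 ± 0.19 in females and 4.96 ± 0.22 in males (SD, n = 9 each; difference 0.75, adjusted p = 6.08e-06). LAMTOR1, the lysosomal anchor of that complex, differed by -0.28 (adjusted p = 0.00289; 0.0798 without bull 2), and GOT2, the mitochondrial aspartate aminotransferase, by -0.21 (adjusted p = 0.00669; 0.134 without bull 3).

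Mitochondrial carriers were called in 9 of 27 cases, 4 higher in females and 5 higher in males. Of the 4, SLC25A5 and SLC25A14 are the X-linked pair given above, which leaves 2 higher in females and 5 higher in males among 25 autosomal ones. The SLC25A26 carrier, which brings the methyl donor S-adenosylmethionine into mitochondria, had 7.84 to 8.27 (median 8.07) in female arrays, against 8.27 to 8.49 (median 8.35) in male arrays. The sexes did not overlap, though the highest female and the lowest male array lay side by side. The difference was -0.32 (SE 0.05, adjusted p = 0.000199), with -0.28 in bull 3, -0.18 in bull 2 and -0.50 in bull 1. Its other probe sets gave -0.27 (adjusted p = 0.0552) and -0.08 (adjusted p = 0.472).

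SLC25A29, a carrier of basic amino acids, had 5.92 to 6.44 (median 6.20) in female arrays, against 6.16 to 6.97 (median 6.54) in male arrays. It was 1.30-fold higher in males (adjusted p = 0.00186; 0.0994 without bull 3), with overlap. SLC25A40, linked to mitochondrial glutathione, had 6.12 to 6.86 (median 6.62) in female arrays, against 6.17 to 7.28 (median 7.13) in male arrays. Most male arrays were above the female ones, while male bull 3 replicates 1 and 3 and male bull 1 replicate 1 lay within them. The difference of -0.38 had an adjusted p of 0.0272, and the call was lost in 6 of the 18 fits that left out 1 array (0.0515 to 0.0597), without bull 1 (0.0815) and without bull 2 (0.199).

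Both remaining calls toward males were small and rested on the full set of arrays. SLC25A11, which exchanges oxoglutarate for malate in the shuttle of reducing equivalents, had 7.74 to 8.10 (median 7.96) in female arrays, against 7.86 to 8.57 (median 8.11) in male arrays. SLC25A1, which exports citrate for fatty acid synthesis, had 9.20 to 9.46 (median 9.29) in female arrays, against 9.25 to 9.62 (median 9.52) in male arrays. The sexes overlapped in both genes. The differences were -0.22 for SLC25A11 (adjusted p = 0.0309) and -0.18 for SLC25A1 (adjusted p = 0.0365). A dim second probe set of SLC25A11 gave 0.02 (adjusted p = 0.91), and the mean over its probe sets gave -0.10 (adjusted p = 0.333). The call of SLC25A11 was lost in 10 of the 18 fits without 1 array (0.0518 to 0.0686) and in each fit without 1 bull (0.0881 to 0.143). The call of SLC25A1 was lost in 13 of the 18 (0.0549 to 0.0781) and in each fit without 1 bull (0.0856 to 0.217).

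Toward females, SLC25A12 exports aspartate from mitochondria in exchange for glutamate. Its brightest probe set had 4.54 to 5.25 (median 4.82) in female arrays, against 4.23 to 4.78 (median 4.65) in male arrays, and differed by 0.31 (adjusted p = 0.0136; 0.0839 without bull 2 and 0.0739 without bull 3). Its other probe sets differed by -0.05 (adjusted p = 0.763) and -0.06 (adjusted p = 0.563), so the probe sets of this gene disagreed. SLC25A25, an exchanger of ATP-magnesium for phosphate, had 5.44 to 5.77 (median 5.62) in female arrays, against 5.13 to 5.73 (median 5.45) in male arrays. It differed by 0.19 (adjusted p = 0.0317), its other probe set by 0.04 (adjusted p = 0.789), and the call was lost in 12 of the 18 fits without 1 array (0.051 to 0.0703), without bull 2 (0.375) and without bull 3 (0.0887).

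The 3 measured ADP/ATP carriers were compared with each other by their sex differences, since levels of different probe sets cannot be compared. The X-linked SLC25A5 differed by 0.33, as given above. SLC25A6 had 12.88 to 13.08 (median 13.05) in female arrays, against 12.81 to 13.10 (median 13.02) in male arrays, so that the sexes covered the same range (difference 0.02, adjusted p = 0.835). SLC25A4 averaged 9.60 ± 0.13 in females and 9.46 ± 0.12 in males (SD, n = 9 each; difference 0.15, adjusted p = 0.0919). These genes have similar sequences, and how far their probe sets share signal was not tested. SLC25A30, like SLC25A14 of the uncoupling protein group, differed by -0.21 (adjusted p = 0.317). The uncalled mitochondrial carriers ranged from -0.22 to 0.16.

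**Figure D3:**
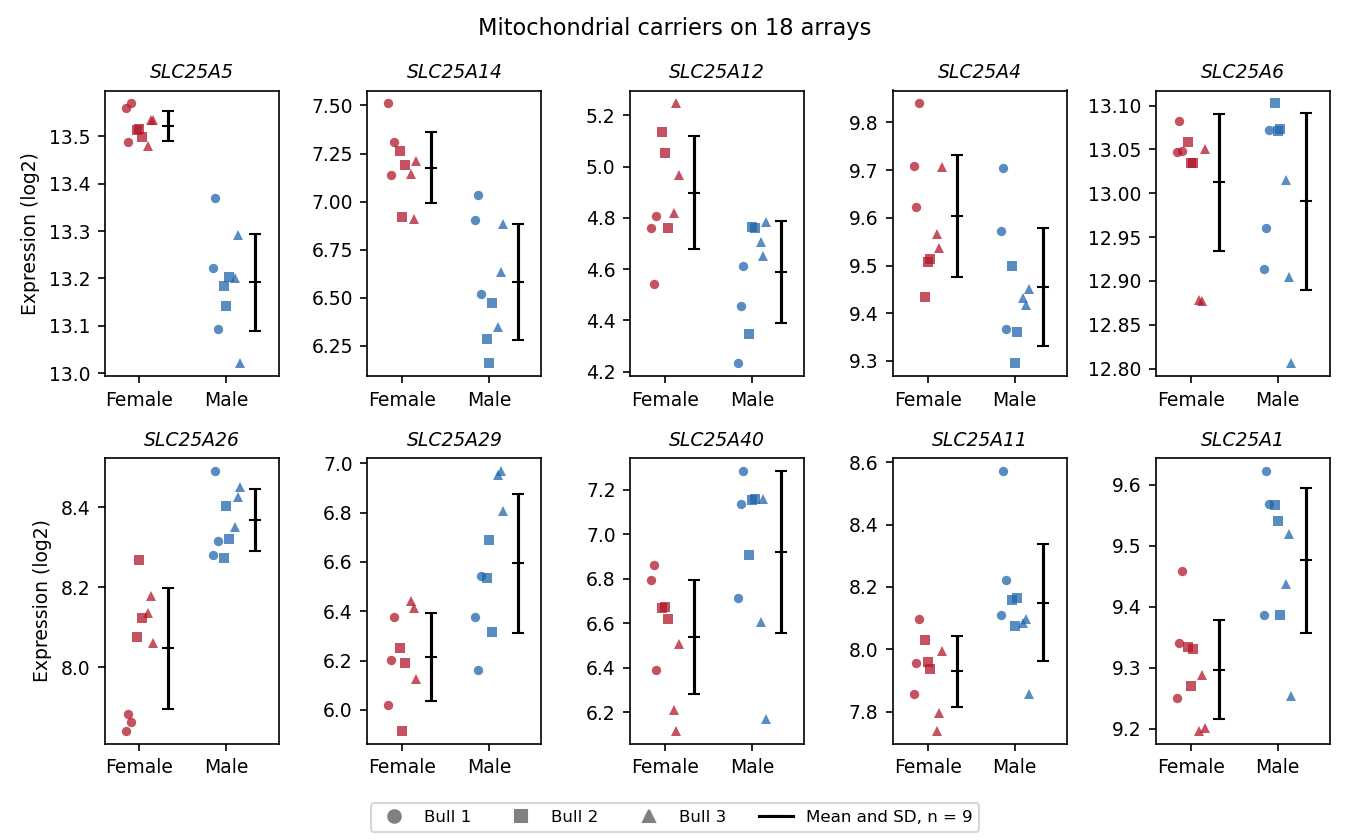
Log2 expression (vertical) of the named mitochondrial carriers on each array, with females left of males for every gene, 9 arrays for each sex, the marker giving the bull and the bar the mean with its SD. The female arrays of SLC25A5 all lie above the male arrays, those of SLC25A26 all lie below, and SLC25A6 covers the same range in both sexes.

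Proteins that bring carriers into the inner membrane, with other channels of the mitochondrial membranes, were measured for 15 of 20 listed genes. Of these 2 were higher in females, 1 was higher in males, and the median difference was -0.02. TIMM8A, an X-linked chaperone of the space between the membranes, averaged 10.64 ± 0.10 in females and 9.96 ± 0.17 in males (SD, n = 9 each; difference 0.68, adjusted p = 9.6e-07). MPC2, a subunit of the pyruvate carrier, differed by 0.20 (adjusted p = 0.0359). Its call was lost in 11 of the 18 fits without 1 array (0.0501 to 0.0745), without bull 2 (0.102) and without bull 3 (0.475). MICU2, a regulator of the calcium channel, differed by -0.28 (adjusted p = 0.000666).

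The other carriers numbered 105, of which 10 were higher in females, 12 were higher in males and 83 were not called. Toward females, SLC66A3 had 8.66 to 9.19 (median 8.94) in female arrays, against 8.21 to 8.65 (median 8.42) in male arrays. The gene is autosomal, and its sexes did not overlap (difference 0.49, SE 0.07, 1.41-fold, adjusted p = 9.46e-05). SLC5A5, the sodium-coupled iodide carrier, was dim, with 4.46 to 5.10 (median 4.80) in female arrays, against 3.79 to 4.63 (median 4.27) in male arrays. It was 1.53-fold higher in females (adjusted p = 7.22e-05), with 0.33 in bull 3, 0.77 in bull 2 and 0.76 in bull 1.

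Both SLC13A2, a carrier of dicarboxylates and of citrate, and SLC27A6, a fatty acid uptake protein, were dim. SLC13A2 had 3.75 to 4.41 (median 4.05) in female arrays, against 3.52 to 3.99 (median 3.74) in male arrays (adjusted p = 0.00195; 0.282 without bull 2). SLC27A6 had 2.77 to 3.41 (median 2.99) in female arrays, against 2.59 to 2.94 (median 2.77) in male arrays (adjusted p = 0.00239; 0.128 without bull 2). The sexes overlapped in both, and the differences were 0.32 and 0.31.

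Among the carriers higher in males, SLC29A3 moves nucleosides out of lysosomes. It had 6.06 to 6.45 (median 6.30) in female arrays, against 6.49 to 6.98 (median 6.73) in male arrays. No male array overlapped a female one, and the difference of -0.42 (SE 0.07, 1.34-fold, adjusted p = 0.000321) was -0.39 in bull 3, -0.46 in bull 2 and -0.41 in bull 1. SLC28A3, a sodium-coupled nucleoside carrier of the plasma membrane, had 4.79 to 5.36 (median 5.14) in female arrays, against 4.90 to 6.09 (median 5.55) in male arrays. Its difference was -0.35 (adjusted p = 0.0292), and its other probe sets gave -0.39 (adjusted p = 0.0566) and -0.41 (adjusted p = 0.000903). The call on the brightest probe set was lost in 8 of the 18 fits without 1 array (0.0503 to 0.0631) and in each fit without 1 bull (0.0817 to 0.146).

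SLC17A5, which exports sialic acid from lysosomes, had 7.74 to 8.22 (median 7.92) in female arrays, against 7.96 to 8.52 (median 8.33) in male arrays. It differed by -0.34 (adjusted p = 0.00129; 0.0756 without bull 3). SLC22A5, the carnitine carrier, had 6.73 to 7.20 (median 6.99) in female arrays, against 6.88 to 7.58 (median 7.32) in male arrays. It differed by -0.35 (adjusted p = 0.00656; 0.169 without bull 3), and its other probe set by -0.23 (adjusted p = 0.133). Both genes overlapped between the sexes. SLC35E2B, of the nucleotide sugar carrier family, had 7.91 to 8.51 (median 8.13) in female arrays, against 8.24 to 8.75 (median 8.59) in male arrays, and differed by -0.36 (adjusted p = 0.000524). Its other probe set differed by -0.25 (adjusted p = 0.0808). SLC35F6 of the same family differed by -0.27 (adjusted p = 0.00328; 0.0611 without bull 3).

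The called carriers that remain had smaller differences. SLC27A4, SLC35A1, SLC35E3 and SLC35G2 were higher in females by 0.21 to 0.31, and SLC15A4, SLC16A13, SLC35B1, SLC37A1, SLC44A2 and SLC66A2 differed by -0.25 to -0.18. Of these, SLC35G2 was dim, at a level above only 17.0% of probe sets. In fits without 1 array the call was lost in 7 of the 18 for SLC27A4, 10 for SLC35A1, 8 for SLC35E3, 14 for SLC35G2, 10 for SLC15A4, 12 for SLC16A13 and 6 for SLC35B1. It was lost in none for SLC37A1, SLC44A2 and SLC66A2. The other probe sets of SLC16A13 gave -0.22 (adjusted p = 0.169) and 0.04 (adjusted p = 0.698). That of SLC44A2 gave -0.17 (adjusted p = 0.268), and that of SLC35E3 gave 0.41 (adjusted p = 0.0561). By family, the SLC38 carriers were called in 4 of 5 cases (2 higher in females, 2 higher in males) and the SLC35 carriers in 7 of 16 (4 and 3), where 20.8% of all genes were called (11.5% and 9.31%). None of the 7 SLCO organic anion carriers was called by limma, with 1 of them at an unadjusted p under 0.05. Nor was any of the 7 members of the SLC4 family, named for bicarbonate transport, with 0 at an unadjusted p under 0.05. The uncalled others ranged from -0.34 (SLC35G1) to 0.27 (SLC12A2, a sodium, potassium and chloride carrier). The other probe set of SLC12A2 passed the threshold, at 0.37 (adjusted p = 0.0102). Of 16 listed kinases and pumps that set the ion gradients, 11 were measured. None of these was higher in females and 1, the scaffold NHERF2, was higher in males. It differed by -0.24 (adjusted p = 0.0376), and the call was lost in 13 of the 18 fits without 1 array (0.0516 to 0.0837).

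The bulls give separate comparisons of the sexes with 3 arrays on each side. In bull 3, 9 carriers were called, 3 higher in females and 6 higher in males. In bull 2, 11 were called, 9 and 2, and in bull 1, 9 were called, 5 and 4. Over all genes 5.92% were called in bull 3 (4.29% higher in females, 1.63% higher in males), 4.59% in bull 2 (3.71% and 0.874%) and 6.03% in bull 1 (4.25% and 1.78%). Of the 42 carriers called over all bulls, 41 had the same sign in each bull, but the call is an average over the same arrays, so the signs are a description. The interaction of sex and bull was called for 0 of the 159 carriers in limma, and 5 had an unadjusted p under 0.05. Over all genes 0.0% were called and 2.12% had an unadjusted p under 0.05.

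The smallest unadjusted interaction p-values belonged to SLC1A3, SLC25A34 and SLC13A2. SLC1A3 had 0.00486, with the differences given above. SLC25A34, a mitochondrial carrier not called for sex (difference 0.06, adjusted p = 0.661), had 0.0155, and its difference was 0.36 in bull 3, -0.13 in bull 2 and -0.07 in bull 1. Its other, dimmer probe set differed between the sexes by 0.30 (adjusted p = 0.0104). SLC13A2 had 0.0193, with a difference of 0.21 in bull 3, 0.61 in bull 2 and 0.14 in bull 1. None of these passed the adjustment.

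**Figure D4:**
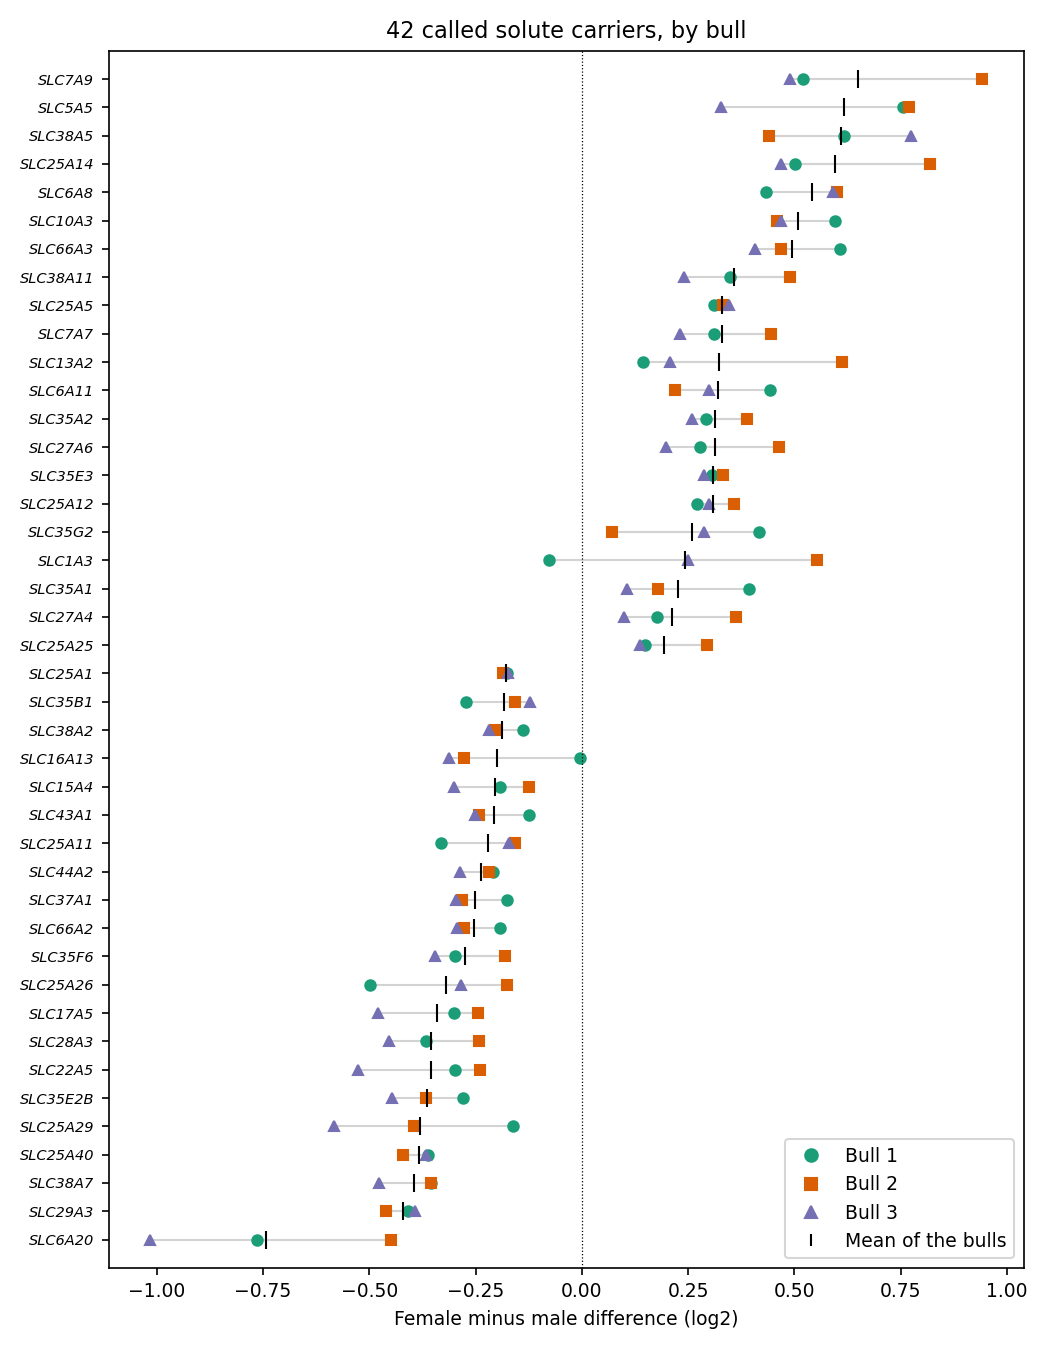
Female minus male difference (log2) of the 42 called carriers in each bull, 1 row per gene; the markers stand for the 3 bulls, the black ticks for their mean, and positive values are higher in females. All markers of a gene lie on the same side of 0 except those of SLC1A3, whose bull 1 value is -0.08.

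Markers of the cells a blastocyst pool could hold moved in both directions. Of 9 measured trophectoderm markers, 1 was higher in females (IFNT2) and 3 were higher in males (PAG2, PAG11 and TFAP2A). Their mean level lay between 8.34 and 8.76 in female arrays and between 8.44 and 8.93 in male arrays. Of 5 inner cell mass markers 2 were higher in females (STAT3 and SPP1), with mean levels of 9.45 to 9.70 in female arrays and 9.24 to 9.50 in male arrays. The 8 primitive endoderm markers had 1 call in each direction, with mean levels of 7.81 to 8.0 in female arrays and 7.71 to 7.93 in male arrays. In pooled embryos fewer cells of a type and less RNA per cell cannot be told apart.

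Markers of cells from outside the embryo were also called in both directions, and array values have no true 0. Cumulus and granulosa markers were called in 2 cases toward females and 1 toward males of 16 (list mean 4.96 to 5.43 in female arrays and 4.83 to 5.40 in male arrays). CYP19A1 differed by 0.56, DCN by 0.33 and COL1A2 by -0.26. FSHR was above 16.0% of probe sets, CYP19A1 above 72.3% and HAS2, which was not called, above 93.3%. Sperm markers were called in 2 cases toward females and 2 toward males of 8 (5.12 to 5.37 in female arrays and 4.94 to 5.23 in male arrays). The sizes were unequal: PRM1 differed by 1.73 and TNP1 by 0.88, more than any carrier, and ODF2 by -0.25 and SPA17 by -0.28. Blood markers were called in 2 and 1 of 7 (4.35 to 4.82 in female arrays and 4.30 to 4.59 in male arrays). HBB differed by 0.81, again more than any carrier, HBA by 0.26 and CD68 by -0.43, and the leukocyte marker PTPRC, above 9.4% of probe sets, was not called. Fibroblast markers were called in 2 and 0 of 5 (5.53 to 6.20 in female arrays and 5.23 to 6.13 in male arrays). They were COL1A1, which differed by 0.19, and DCN, already counted among the cumulus and granulosa markers. The collagen COL1A2, at -0.26, was listed only among the latter. The part of all these cell types in the carrier differences was not tested.

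The bulls themselves differed in few carriers, averaged over the sexes. Bull 3 against bull 2 gave 8 called carriers, 6 higher and 2 lower in bull 3, where 3.33% of all genes were called (1.9% higher and 1.43% lower). Bull 3 against bull 1 gave 7 (4 higher, 3 lower; 3.6% of all genes, 1.37% higher and 2.24% lower), and bull 2 against bull 1 gave 3 (2 higher, 1 lower; 2.04% of all genes, 0.557% higher and 1.49% lower). Comparisons that share a bull share its arrays. Bull and any unrecorded batch of the embryos cannot be told apart. The 5' minus 3' signal of 3 control transcripts, an index of RNA quality, also varied by bull. It was -1.27 to -0.36 in bull 3, -0.38 to -0.13 in bull 2 and -0.44 to 0.45 in bull 1. Its part in the differences between bulls was not tested.

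SLC27A4, a fatty acid uptake protein, set bull 3 apart. It had 7.99 to 8.27 (median 8.16) in bull 3, 7.29 to 7.92 (median 7.58) in bull 2 and 7.47 to 7.87 (median 7.71) in bull 1. The bull 3 arrays lay above all others, by 0.58 (SE 0.08, adjusted p = 0.000439) against bull 2 and by 0.48 (SE 0.08, adjusted p = 0.00249) against bull 1. SLC27A4 was also higher in females, by 0.21 (adjusted p = 0.0253), a call that was lost in 7 of the 18 fits without 1 array (0.0512 to 0.0639), without bull 2 (0.383) and without bull 3 (0.0562).

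Of the amino acid carriers, SLC1A1, SLC1A5, SLC7A9, SLC38A11 and SLC38A2 were called between bulls. SLC1A1, a carrier of glutamate and cysteine, had 7.35 to 7.93 (median 7.70) in bull 3, 7.90 to 8.32 (median 8.20) in bull 2 and 7.87 to 8.30 (median 7.97) in bull 1. Bull 3 was lower, by -0.49 (adjusted p = 0.00378) against bull 2 and -0.34 (adjusted p = 0.0366) against bull 1, and the second call was lost in 8 of the 18 fits without 1 array (0.0509 to 0.111). SLC1A5, an exchanger of glutamine and other neutral amino acids, had 9.10 to 9.44 (median 9.24) in bull 3, against 8.69 to 8.94 (median 8.83) in bull 2, with no overlap. The difference was 0.46 (adjusted p = 0.0183), and it was lost without female bull 2 replicate 1 (0.059) and without female bull 3 replicate 2 (0.0602). SLC7A9 averaged 5.55 ± 0.33 in bull 3 and 4.92 ± 0.54 in bull 2 (SD, n = 6 each; difference 0.63, adjusted p = 0.0214, lost in 4 of the 18 fits, 0.0512 to 0.0663).

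Peptide, nucleoside and other carriers made up the rest. SLC15A1, the proton-coupled carrier of small peptides, had 6.57 to 7.22 (median 6.82) in bull 3, 6.37 to 6.63 (median 6.45) in bull 2 and 6.18 to 6.80 (median 6.47) in bull 1. Its differences were 0.41 (adjusted p = 0.0197) against bull 2 and 0.40 (adjusted p = 0.0249) against bull 1, with overlap in both. The first was lost without male bull 3 replicate 3 (0.0509) and without female bull 3 replicate 1 (0.0579), and the second in 3 of the 18 fits (0.058 to 0.0754). SLC29A1, a nucleoside carrier of the plasma membrane, had 9.34 to 9.65 (median 9.55) in bull 2, against 9.14 to 9.26 (median 9.20) in bull 1, with no overlap. Its difference of 0.33 (adjusted p = 0.0338) was lost in 8 of the 18 fits (0.0512 to 0.0938).

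The bull differences that remain were each lost in at least 4 of the 18 fits without 1 array. SLC38A11 was higher in bull 2 than in bull 1 by 0.41 (adjusted p = 0.0379, lost in 7 of the 18 fits, 0.0524 to 0.11), and SLC38A2 was higher in bull 3 than in bull 1 by 0.23 (adjusted p = 0.0414, lost in 14). SLC35E2B differed by -0.32 for bull 2 minus bull 1 (adjusted p = 0.0498, lost in 15 of the 18) and by -0.33 for bull 3 minus bull 1 (adjusted p = 0.0291, lost in 6). SLC44A4, of the choline carrier family, differed by -0.36 for bull 3 minus bull 1 (adjusted p = 0.0291, lost in 7), and SLC35A4 by 0.25 (adjusted p = 0.0387, lost in 13). SLC18A2, the vesicular monoamine carrier, differed by -0.37 for bull 3 minus bull 2 (adjusted p = 0.0345, lost in 8). SLC25A25 differed by 0.29 (adjusted p = 0.0288, lost in 7) and SLC4A7, a carrier of sodium and bicarbonate, by 0.35 (adjusted p = 0.0221, lost in 4) for bull 3 minus bull 2. The last was measured at 7.78 to 8.14 (median 7.97) in bull 3, against 7.36 to 7.77 (median 7.65) in bull 2, with no overlap. Calls were also lost when the probe sets within each gene were averaged. For bull 3 minus bull 1, SLC35A4 then gave 0.05 (adjusted p = 0.629) and SLC38A2 gave 0.10 (adjusted p = 0.437). SLC35E2B gave -0.18 for bull 2 minus bull 1 (adjusted p = 0.23), and SLC25A25 gave 0.17 for bull 3 minus bull 2 (adjusted p = 0.179). The call of SLC35E2B for bull 3 minus bull 1 was kept.

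**Figure D5:**
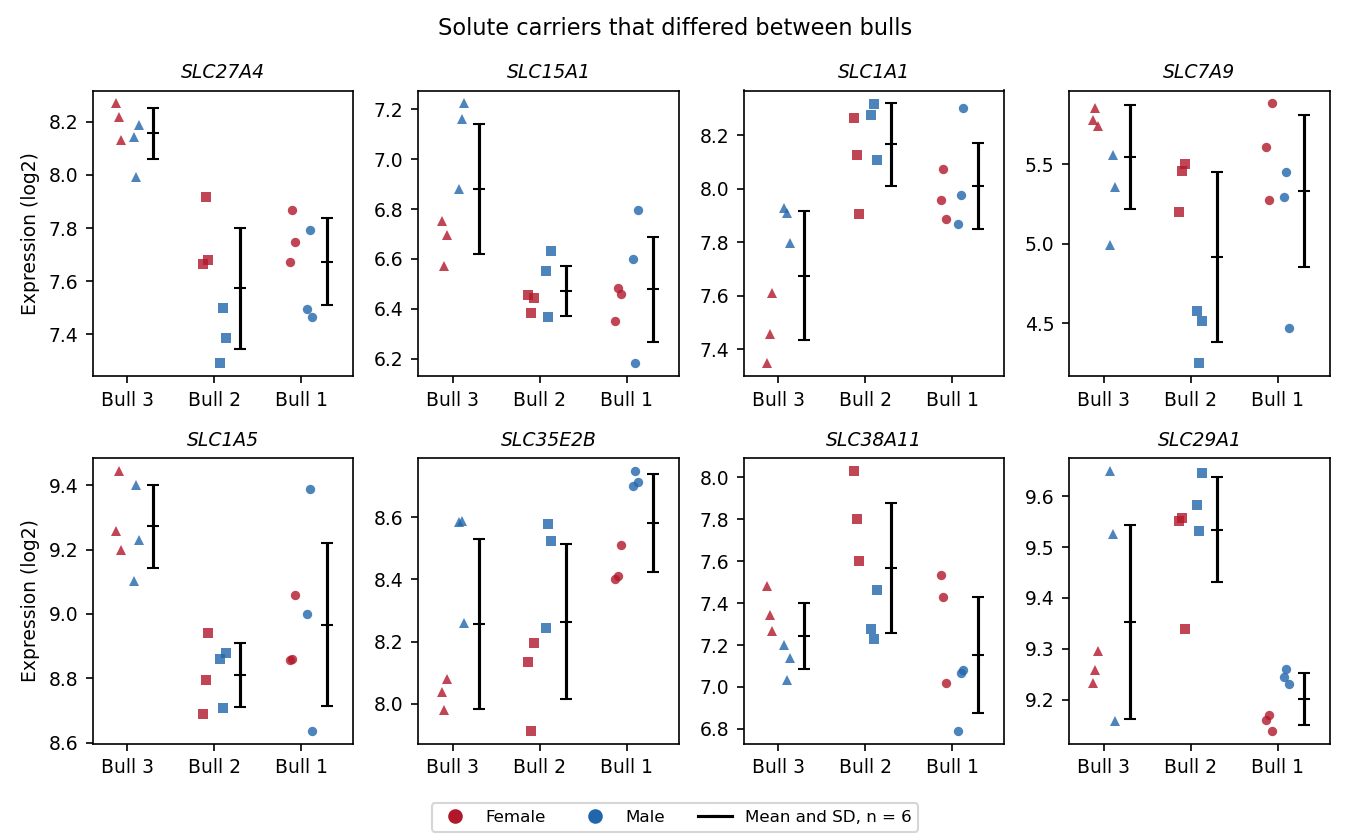
Log2 expression (vertical) of carriers named for differences between bulls on each array, with bull 3 left of bull 2 and bull 1. There are 6 arrays for each bull, the colour gives the sex, the marker the bull and the bar the mean with its SD. The bull 3 arrays of SLC27A4 lie above all others.

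The calls differed in how far they depended on single arrays or bulls. Of the 42 carriers called for sex, 30 were called in each of the 18 fits that left out 1 array. In all 32 alternatives that gave a value 12 were called: SLC10A3, SLC25A14, SLC25A5, SLC35A2, SLC5A5, SLC66A3 and SLC6A8 toward females, and SLC25A26, SLC29A3, SLC35E2B, SLC38A7 and SLC6A20 toward males. Of the 7 toward females 5 are X-linked, and the 5 toward males are autosomal.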

How the data were processed

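Total RNA (50 ng per pool) was amplified and hybridised, per the labels' protocols. Per probe set, the authors deposited log2 values; RMA and Partek 6.4 are named per the submitters' processing notes, which give them no role. Values from 1.89 to 14.15, with array medians of 5.33 to 5.49, gave the scale. RMA hides a shift of all transcripts. The number of arrays limits the precision.

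Array controls (112) were left out, which left 24016 probe sets. In the platform annotation 13292 of these have a single gene, 86 several and 10638 none. Current symbols and chromosomes were looked up in the ARS-UCD2.0 gene table (13263 matched). The fit had a mean for each of the 6 sex and bull groups (lmFit and eBayes of limma 3.58.1, under R 4.3.3), with Benjamini-Hochberg adjustment over all 24016 and a threshold of 0.05. The steps were tested on simulated data.

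Members, lists and tests were chosen with earlier results of these data known. Carriers were named by a rule: up to 6 per class and direction with the same sign in each bull, each X-linked carrier, the SLC3 and SLC7 families, the taurine, glycine, system A, ADP/ATP and uncoupling carriers, up to 3 per direction for each pair of bulls, and the 3 smallest interaction p-values. The remaining called carriers were added, and SLC35G1 and SLC12A2 were singled out after their values were seen as the ends of the uncalled range, as were the carriers with another probe set under the threshold and the bull calls beyond the rule. Lists name up to 3 genes by smallest p.

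Alternatives were an additive model, no moderation, an intensity trend, array weights, the brighter 50% of probe sets, quantile normalization, the bull as replicate, the sample number as block, leaving out each array or bull, other choices of probe set per gene, and, chosen after seeing the data, leaving out the 4 arrays of wide spread. The deviations of samples of the same number had correlations of -0.181 to 0.103, so the values showed no clear pairing by number. Whether such samples were made together is not in the labels.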

Additional observations from a re-analysis of the deposited data

Results flagged for a closer look

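Among 102 pairs of a named carrier and a sex, 2 had a lone array far from the other 8 of its sex by Dixon's test, which chance alone gives in about 1 of 20. SLC6A6, the taurine carrier, had 4.23 in female bull 1 replicate 3, where the next female array had 3.53. SLC7A5, the leucine exchanger, had 11.54 in the same array, where the next female array had 11.24. This array is 1 of the 4 of wide spread, and neither gene was called for sex.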

How the results depend on the processing

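The 42 sex calls kept their sign in each alternative run. Higher in males (21 in the fit reported), 32 were called with array weights, 12 with the replicate block, 9 without bull 2 and 6 without bull 3; higher in females (21), 9 were called without bull 2. Leaving out 1 array gave 16 to 21 higher in females and 17 to 28 higher in males, and 0 to 0 interactions. Within bull 1 (9), 15 were called with array weights, 5 with the block, 5 without bull 2 and 15 with the mean of a gene's probe sets (5 to 10 without 1 array). Within bull 2 (11), 21 were called with weights, 5 with the block, 7 without bull 3 and 17 with 1 probe set per gene (4 to 15). Within bull 3 (9), 32 were called with weights, 16 in the brighter 50%, 3 with the block, 15 without bull 1, 4 without bull 2 and 14 with 1 probe set per gene (1 to 15). Bull 3 against bull 2 (8) gave 13 with the intensity trend, 24 with weights, 13 in the brighter 50%, 3 with the block and 17 without bull 1 (3 to 15). Bull 3 against bull 1 (7) gave 4 without moderation, 22 with weights, 1 with the block, 1 without bull 2 and 4 without the wide arrays (1 to 11). Bull 2 against bull 1 (3) gave 5 in the additive model, 5 with the trend, 10 with weights, 7 in the brighter 50%, 0 with the block, 1 without bull 3, 1 without the wide arrays and 5 with 1 probe set per gene (0 to 8). The cause of these shifts was not tested; leaving out a bull also leaves fewer arrays.

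Among the carriers whose sex difference was recomputed (the called ones and those named for sex), those that changed sign were uncalled and near 0: SLC25A34 without bull 3 (-0.098), SLC25A6 without bull 1 (-0.0067), SLC3A2 with array weights (0.024), without bull 2 (0.041) and without the wide arrays (0.030), and SLC6A6 with quantile normalization (0.012) and without bull 2 (0.099). Without 1 array SLC3A2 ranged from -0.0702 to 0.0305 and SLC6A6 from -0.0955 to 0.0417. Whether the sample numbers of the labels pair the arrays is not known, and what lowers the counts under the block was not tested. The additive model and the bull as replicate give no interaction. Signals of dim probe sets limit SLC6A14, SLC6A6, SLC6A9, SLC3A1, SLC6A11, SLC5A5, SLC13A2, SLC27A6 and SLC35G2.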
